A study of Mus musculus with 6 samples.

Results

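Irf1 and 8 genes of its neighbourhood on mouse chromosome 11 were followed in Th9 cells with and without an intact Irf1 gene. The 9 genes were Irf1, Gm17334, Rad50, Kif3a, Slc22a5, Slc22a4, P4ha2, Pdlim4 and Acsl6, of 41388 genes in the table. They were listed by name and were chosen by values already seen in the comparison of WT and Irf1-/- cells, so that their differences between the groups are given as a description, without a p, and the calls over all genes are only counted for them beside the share of all genes. They are not all of the nearest genes: 45 other annotated genes and 5 cytokine genes of the same region lay apart from this selection, and some of them were closer to Irf1. RNA-Seq was performed on 3 WT and 3 Irf1-/- cultures of T cells from spleen and lymph nodes of C57BL/6 background mice, given as naive CD4+ T cells and as 8 to 12 weeks old by the study's methods. By the study's culture methods, the cells were primed with antibodies against CD3 and CD28 and given an antibody against mouse IFN-γ. Both groups were kept for 2 days with IL-2, IL-4 and TGF-β, which drive the IL-9-producing Th9 fate. Both received recombinant rat IFN-γ at 5 ng per ml. The groups differed in the genotype, with Irf1 intact in WT and both copies targeted in Irf1-/- cells. Which exons the targeted allele lacks is not given in the sources used here.

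IRF1 is a transcription factor that IFN-γ induces, and it binds the interferon-stimulated response element (ISRE) of its target genes. The gamma-activated sequence (GAS) is a different element, found at genes that respond to IFN-γ. In mouse, Irf1 lies in a cluster with the Th2 cytokine genes Il5, Il13 and Il4, and the locus control region of these cytokine genes is housed in the Rad50 gene.

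Reads on genes numbered 6381576 to 13348230 in WT and 5639788 to 12423511 in Irf1-/- libraries, and replicate 3 was the largest of each group. Values are normalized counts, the reads on a gene divided by the size factor of the library, and 3 reads were worth 1.84 to 4.16. WT replicates 1 and 2 held transcripts of Ddx3y, a Y-linked gene, at 849 and 939, whereas the other 4 libraries held at most 4.16. Xist, the transcript of the inactive X chromosome, was at 16974 to 19403 in those 4 libraries and at most 6.01 in WT replicates 1 and 2. The mice were sex-matched by the study's methods, so these libraries do not match that statement, and differences were also taken with the 4 Xist-positive libraries alone, a choice made after seeing the data. That leaves 1 WT library against 3, and its spread is then taken to be that of the Irf1-/- libraries. Markers of T cells (4 of 4 detected) summed to 8683 to 9473 in WT and 8318 to 8599 in Irf1-/- libraries. Markers of CD8 T cells (2 of 2 detected) summed to 32.4 to 41.2 and 20.3 to 30.7, and those of B cells (4 of 4) to 18.7 to 26.4 and 21.7 to 37.4. Markers of myeloid cells (6 of 6) summed to 47.4 to 150.3 in WT and 37.7 to 703 in Irf1-/- libraries, the highest value in Irf1-/- replicate 2. None of the 3 NK cell markers had a read. In bulk samples, fewer cells of a type and less RNA per cell cannot be told apart.

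The sequences behind the findings came from the reference of the same build, GRCm38. The Gm17334 gene is annotated on the other strand inside Irf1, and it takes in the whole of exon 3 of transcript Irf1-202, 100 bases at chr11:53772839-53772938. It is printed on the + strand with 20 intron bases at each end, because reads of either gene from this stretch would have the same letters. The capitals mark the exon and the lower case letters the intron of Irf1, all of which Gm17334 covers as exon.
Irf1 exon 3 with flanks (chr11:53772819-53772958, + strand): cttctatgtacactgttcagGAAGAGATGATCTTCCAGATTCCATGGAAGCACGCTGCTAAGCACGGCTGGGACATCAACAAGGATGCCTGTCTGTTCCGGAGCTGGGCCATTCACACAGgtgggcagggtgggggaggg

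The RefSeq promoter windows of GRCm38.p6, from 250 bases before to 50 bases after a start, held 7 of the 9 genes by symbol in 10 windows. Rad50 and Gm17334 did not match. Windows were searched on both strands for the ISRE core AANNGAAA and for the GAS motif TTCNNNGAA. Of 32817 promoter windows of 300 bases in the genome, 23.9% held the ISRE core, 8.29% the GAS motif and 2.60% both. Among the 10 windows of these genes, 0 held the ISRE core and 1 held the GAS motif. The match was TTCCCCGAA in the upstream window of Irf1, at chr11:53769924-53769932, and its first base lay 90 bases before the start. The 250 upstream bases are printed for Irf1 and for P4ha2 and Pdlim4, the distal members with the higher levels in Irf1-/- cells, and for Slc22a5, the nearest member on their side of Irf1, which did not have such a difference. Capitals mark the GAS match, and a sequence without capitals held neither motif.
Irf1 (chr11:53769764-53770013, + strand): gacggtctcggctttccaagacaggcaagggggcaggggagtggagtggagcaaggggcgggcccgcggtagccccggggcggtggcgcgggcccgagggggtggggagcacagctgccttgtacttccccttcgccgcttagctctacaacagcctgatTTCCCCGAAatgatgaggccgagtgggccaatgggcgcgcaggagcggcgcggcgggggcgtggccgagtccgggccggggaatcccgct
P4ha2 (chr11:54100674-54100923, + strand): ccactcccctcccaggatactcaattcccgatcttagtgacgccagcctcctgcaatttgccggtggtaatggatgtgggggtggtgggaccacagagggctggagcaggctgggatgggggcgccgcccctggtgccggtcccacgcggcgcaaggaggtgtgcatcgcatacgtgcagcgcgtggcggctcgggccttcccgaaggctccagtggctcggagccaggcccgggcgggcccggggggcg
Pdlim4 (chr11:54069018-54069267, - strand): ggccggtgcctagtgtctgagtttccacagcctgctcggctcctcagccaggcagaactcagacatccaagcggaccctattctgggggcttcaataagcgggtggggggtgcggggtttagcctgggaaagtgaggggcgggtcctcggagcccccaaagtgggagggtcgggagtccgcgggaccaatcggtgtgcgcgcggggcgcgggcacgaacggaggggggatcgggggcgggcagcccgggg
Slc22a5 (chr11:53891704-53891953, - strand): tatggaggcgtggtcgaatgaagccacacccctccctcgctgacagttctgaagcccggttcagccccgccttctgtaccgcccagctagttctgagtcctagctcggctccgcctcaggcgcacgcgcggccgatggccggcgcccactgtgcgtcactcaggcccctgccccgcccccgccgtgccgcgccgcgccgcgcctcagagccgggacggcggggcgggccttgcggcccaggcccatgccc
A match is a description of the letters and no match says only that these letters were not in the window.

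To see what was left of the targeted gene, Irf1 itself was examined first (ENSMUSG00000018899, GRCm38 chromosome 11 from 53770014 to 53778374 on the + strand, protein coding). Its normalized counts were 2968, 2907 and 2660 in WT replicates 1, 2 and 3. In Irf1-/- replicates 1, 2 and 3 they were 1780, 1729 and 1476. All 3 Irf1-/- libraries were below all 3 WT libraries, and replicate 3 was the lowest of each group. The mean fell from 2845 ± 163 to 1662 ± 163 (SD, n = 3 each), which is 58.4% of the WT level and a log2 difference of -0.78 (SE 0.0756). Fitted to the 4 Xist-positive libraries, the log2 difference was -0.68. Reads on the gene as a whole say nothing of which exons they came from, so a transcript without the targeted exons cannot be told from an intact one in these values.

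Gm17334 (ENSMUSG00000091191, chromosome 11 from 53772281 to 53773187 on the - strand, annotated as protein coding) moved the other way. It was read 23, 24 and 34 times in the WT libraries and 122, 105 and 171 times in the Irf1-/- libraries. As normalized counts these were 28.7, 28.9 and 20.9 in WT and 145.7, 145.6 and 109.3 in Irf1-/- replicates 1, 2 and 3. The groups did not overlap, and the lowest Irf1-/- library stood far above the highest WT library. The means were 26.2 ± 4.55 and 134 ± 21.0 (SD, n = 3 each), a 5.11-fold difference and 2.31 on the log2 scale (SE 0.190). Leaving out 1 library at a time gave 2.16 to 2.45, and the 4 Xist-positive libraries gave 2.61.

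The gene model of Gm17334 is a single exon of 907 bases. Of these, 558 lie in intron 2 of Irf1-202, 100 are its whole exon 3 and 249 lie in intron 3. Over all 10 annotated Irf1 transcripts, 135 bases of Gm17334 are exon of Irf1 and 772 are not. The library kit named in the labels is not described as one that marks strand, and whether the counting used strand is not given in the sources used here. Without strand, reads from the 2 genes cannot be told apart, so that a read on the Gm17334 model may come from RNA of either strand. How reads over 2 genes were handled is not given either, and dropping them or counting them for both would change the reads of each gene. The reads were counted on an earlier Ensembl release than the models measured here, and whether Gm17334 had the same bounds there was not tested.

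**Figure D1:**
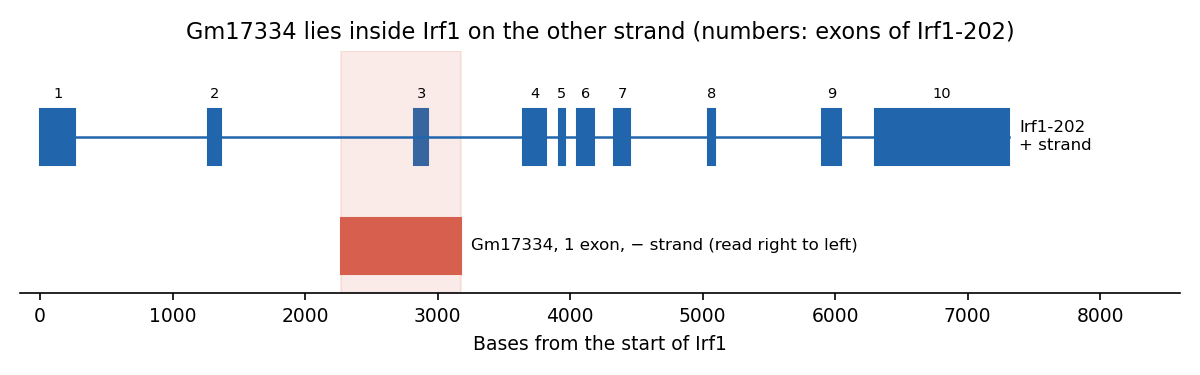
Map of the 10 exons of transcript Irf1-202 (blue boxes, + strand) and the single exon of Gm17334 (red box, - strand), by distance in bases from the start of Irf1. The shaded band marks the 907 bases of Gm17334, which take in exon 3 of Irf1 whole and parts of introns 2 and 3.

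The ratio of reads counted on Gm17334 to reads counted on Irf1 was 0.967%, 0.993% and 0.786% in WT replicates 1, 2 and 3. In Irf1-/- replicates 1, 2 and 3 the ratio was 8.18%, 8.42% and 7.40%. The ratios were close to each other within each group, with means of 0.915% ± 0.113 and 8.00% ± 0.532 (SD, n = 3 each). The sum of both genes was 2871 ± 168 in WT and 1795 ± 184 in Irf1-/- cells (SD, n = 3 each), so the added Gm17334 reads were few beside the Irf1 reads that were missing.

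**Figure D2:**
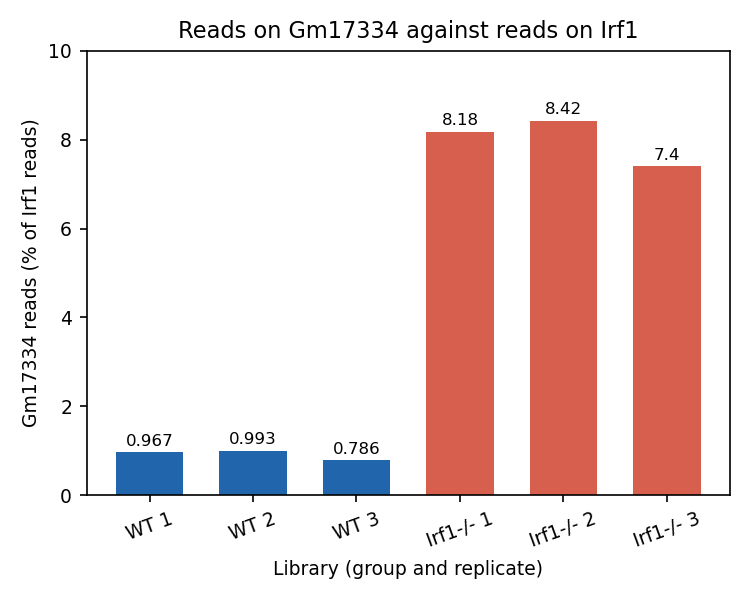
Ratio of reads on Gm17334 to reads on Irf1, in percent, 1 bar for each library, with WT in blue and Irf1-/- in red and an axis that starts at 0. The WT bars lie between 0.786% and 0.993% and the Irf1-/- bars between 7.40% and 8.42%.

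On the side of Irf1 towards lower coordinates lie Kif3a and Rad50, and the groups overlapped for both. Rad50 (chromosome 11 from 53649519 to 53707319 on the - strand, 62.7 kb from Irf1) encodes the ATPase of the MRE11-RAD50-NBN complex, which senses DNA breaks. Its normalized counts were 1450, 1468 and 1848 in WT and 1598, 1609 and 2171 in Irf1-/- replicates 1, 2 and 3. Replicate 3 was the highest of each group, and each Irf1-/- library was above the WT library of the same number. The means were 1589 ± 225 and 1792 ± 328 (SD, n = 3 each), a log2 difference of 0.17 (SE 0.123), and in the 4 Xist-positive libraries it was -0.06. Kif3a (from 53567379 to 53601967 on the + strand, 168 kb from Irf1) encodes a motor subunit of kinesin-2, the motor of transport in cilia. It was at 123.5, 134.6 and 169.0 in WT and at 124.2, 156.7 and 172.5 in Irf1-/- replicates, again highest in replicate 3. Each Irf1-/- value was again above the WT value of the same number. The groups overlapped almost fully, with means of 142 ± 23.7 and 151 ± 24.7 (SD, n = 3 each) and a log2 difference of 0.08 (SE 0.154).

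On the other side, the members closest to Irf1 are 2 genes of organic cation transporters. Slc22a5 (from 53864542 to 53891660 on the - strand, 86.2 kb from Irf1) encodes the carnitine transporter OCTN2. Its normalized counts were 126.0, 155.1 and 137.7 in WT and 128.9, 144.2 and 136.1 in Irf1-/- replicates 1, 2 and 3. All Irf1-/- values fell within the WT range, and the log2 difference of -0.03 (SE 0.116) between 140 ± 14.6 and 136 ± 7.65 (SD, n = 3 each) was smaller than its error. Slc22a4 (from 53983123 to 54028090 on the - strand, 204.7 kb from Irf1), which encodes the ergothioneine transporter OCTN1, had 1 read in WT replicate 3 and 0 reads in the other 5 libraries. It did not reach the mean normalized count of 10 asked of tested genes, and no fold was given. A difference in Slc22a4 was not detectable at this depth.

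Further out, P4ha2 and Pdlim4 had higher levels in Irf1-/- cells. P4ha2 (from 54100095 to 54131665 on the + strand, 321.7 kb from Irf1) encodes a catalytic subunit of the collagen prolyl 4-hydroxylase, an enzyme of the endoplasmic reticulum. Its normalized counts were 28.7, 46.9 and 77.5 in WT replicates 1, 2 and 3. In Irf1-/- replicates 1, 2 and 3 they were 167.2, 180.3 and 248.0. The groups did not overlap, and replicate 3 was the highest of each. The means were 51.0 ± 24.6 and 198 ± 43.4 (SD, n = 3 each), 3.89-fold apart with a log2 difference of 2.03 (SE 0.294). Its WT level was lowest in the Ddx3y-positive libraries. With Ddx3y added to the fit the log2 difference was 1.43, and in the 4 Xist-positive libraries it was 1.32.

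Pdlim4 (from 54054928 to 54069014 on the - strand, 276.6 kb from Irf1) encodes a PDZ and LIM domain protein of the actin cytoskeleton. It was read few times, 5, 17 and 23 times in WT and 25, 32 and 52 times in Irf1-/- replicates 1, 2 and 3. The normalized counts were 6.24, 20.4 and 14.1 in WT and 29.8, 44.4 and 33.2 in Irf1-/- replicates. The lowest Irf1-/- value was above the highest WT value. The means were 13.6 ± 7.11 and 35.8 ± 7.60 (SD, n = 3 each), 2.63-fold apart with a log2 difference of 1.45 (SE 0.379). Pdlim4 was highest in Irf1-/- replicate 2, the library with the highest myeloid marker sum. In WT it was also highest in replicate 2, where the WT myeloid marker sum was highest, at 150.3. Irf1-/- replicate 3, with the lowest sum of its group at 37.7, was above Irf1-/- replicate 1 for Pdlim4. The part of myeloid cells in these levels was not tested. Without Irf1-/- replicate 2 the log2 difference was 1.29, in the 4 Xist-positive libraries it was 1.26, and with Ddx3y in the fit it was 1.37.

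Acsl6 (from 54303798 to 54364756 on the + strand, 525.4 kb from Irf1) encodes a long-chain acyl-CoA synthetase, which activates fatty acids. It was at 124.8, 104.6 and 111.3 in WT and at 130.1, 131.7 and 134.2 in Irf1-/- replicates 1, 2 and 3. The groups did not overlap, yet the difference between 114 ± 10.3 and 132 ± 2.05 (SD, n = 3 each) was small, 0.22 on the log2 scale (SE 0.115).

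**Figure D3:**
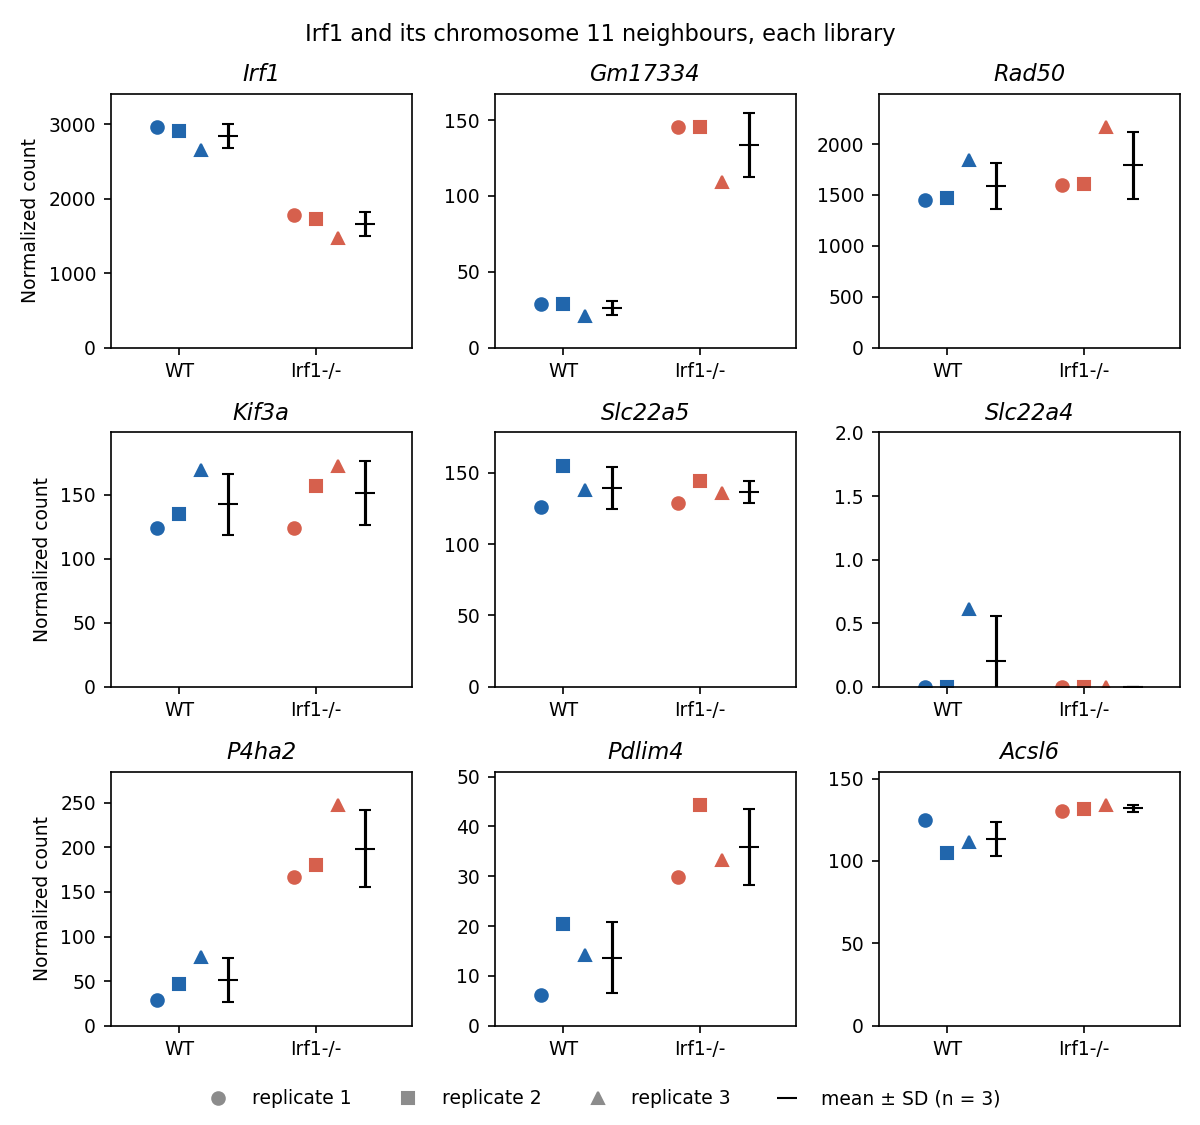
Normalized counts of the 9 genes in each library, 1 panel a gene with an axis from 0, with WT in blue and Irf1-/- in red. Symbols give the replicate number and the black bar the mean ± SD (n = 3), cut at 0 for Slc22a4, and the groups do not overlap for Irf1, Gm17334, P4ha2, Pdlim4 and Acsl6.

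By limma with Benjamini-Hochberg adjustment over 11379 genes and a threshold of 0.05, 1 of the 8 tested members was called lower, 3 were called higher and 4 were not called. The call of Pdlim4 was lost without a trend, without Irf1-/- replicate 2, with Ddx3y in the fit and in the 4 Xist-positive libraries, and Rad50 was called with a replicate block and in replicates 1 and 2 only. Over all genes tested, 12.4% were called lower, 11.4% higher and 23.7% in either direction. The values of the groups did not overlap for 5 of the 8 members and for 40.5% of all genes tested. Nothing is read from these member counts, since the members were chosen on the same contrast. The 8 members had passed the filter with WT means of 13.6 or more, so that none passed through its Irf1-/- level alone.

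The levels of the members were far apart. Per kb of exon, the WT level was highest for Irf1, at a normalized count of 715 ± 41.0, which was above 96.0% of the genes tested. Rad50 followed at 296 ± 41.8. Slc22a5 at 45.5 ± 4.76 and Kif3a at 39.7 ± 6.61 came next and did not differ beyond their spread, and Gm17334 was at 28.8 ± 5.02, with every library below those of Kif3a. Acsl6 at 11.5 ± 1.04, P4ha2 at 8.18 ± 3.95 and Pdlim4 at 5.31 ± 2.78 were low, with Acsl6 and Pdlim4 within the spread of P4ha2. Slc22a4 was at 0.0803 (SD, n = 3 throughout). In Irf1-/- cells the per-kb level of Gm17334 was 147 ± 23.1, behind Irf1 at 418 ± 40.9 and Rad50 at 333 ± 61.0. P4ha2 was at 31.8 ± 6.95 there, still below Kif3a at 42.1 ± 6.88 and Slc22a5 at 44.4 ± 2.49.

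To place the members among the genes around them, the other annotated genes within 1 Mb of Irf1 were tested in the same fit. Of 45 such genes 10 were tested, 1 was lower, 1 was higher and 8 were not called, which is 20% called against 23.7% of all genes. Their median log2 difference was -0.14, and that of all genes tested was -0.00. The gene that fell was Gm12216 (the closest of the 10, chromosome 11 from 53783418 to 53859256 on the - strand, 5 kb from the end of Irf1 and before Slc22a5). It was at 21.2, 21.6 and 21.5 in WT and at 9.55, 1.39 and 3.83 in Irf1-/- replicates 1, 2 and 3, with no overlap. These were 17, 18 and 35 reads in WT and 8, 1 and 6 reads in Irf1-/- libraries, so that the gene had passed the filter through its WT level and did not reach it by its Irf1-/- level. The log2 difference was -2.18 (SE 0.501, limma adjusted p = 0.0107), and -1.11 to -2.72 over 18 alternatives with an adjusted p of 0.00067 to 0.147. The call was lost in the 4 Xist-positive libraries. Uqcrq, which encodes a subunit of respiratory complex III, rose from 1027 ± 73.2 to 1305 ± 125 (SD, n = 3 each), by 0.34 on the log2 scale (limma adjusted p = 0.0107), and its call was lost without WT replicate 1, without a trend, with Ddx3y in the fit and in the 4 Xist-positive libraries, with an adjusted p of up to 0.245. Slc22a21, the third transporter gene of the Slc22a4 and Slc22a5 cluster, was at 16.7 in WT and 19.6 in Irf1-/- cells on average and was not called, with a log2 difference of 0.25 (limma adjusted p = 0.570).

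**Figure D4:**
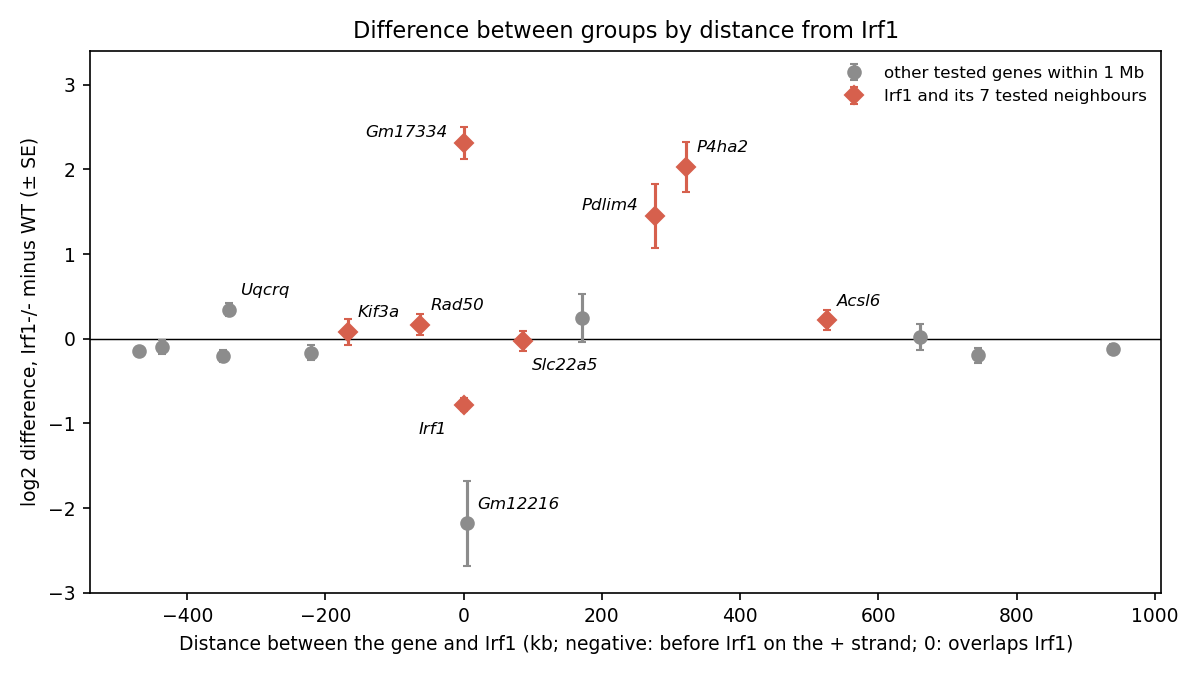
Log2 difference (Irf1-/- minus WT) with its SE against the distance of a gene from Irf1 in kb, for the 8 tested members (red diamonds) and the 10 other tested genes within 1 Mb (grey points). Gm17334, Pdlim4 and P4ha2 lie above 1, Gm12216 lies below -2, and the other points apart from Irf1 lie between -0.21 and 0.34.

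Of the cytokine genes of the region, 5 were tested, and Il4 was called lower while Il5, Il13, Il3 and Csf2 were not called, which is 20% called against 23.7% of all genes tested. Il4, the signature Th2 cytokine, was at 32.4, 38.5 and 67.6 in WT and at 11.9, 8.32 and 7.67 in Irf1-/- replicates 1, 2 and 3, a log2 difference of -2.15 (SE 0.321, limma adjusted p = 0.00113). Its mean of 9.31 in Irf1-/- cells was under the filter of 10, which Il4 passed through its WT level, and the log2 difference was -2.76 to -1.50 over 18 alternatives.

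Irf1 was next set beside 15 other genes of IFN-γ signalling, all of which were tested. Of these 4 were lower, 1 was higher and 10 were not called, and their median log2 difference was 0.03. The share called was 33.3%, against 23.7% of all genes tested. The receptor genes Ifngr1 and Ifngr2 and the kinase genes Jak1 and Jak2 were not called. Irf2, which binds the same element as IRF1 and mostly represses, had a log2 difference of -0.99 (limma adjusted p = 0.000315). The phosphatase gene Ptpn11 was at -0.39 (limma adjusted p = 0.000932) and the transcription factor gene Irf8 at -0.35 (limma adjusted p = 0.0178). The Irf8 call was lost without WT replicate 1, without WT replicate 2, without a trend and with Ddx3y in the fit. Socs3, an inhibitor of cytokine receptor signalling, rose from 189 ± 15.4 to 462 ± 81.6 (SD, n = 3 each), by 1.28 on the log2 scale (limma adjusted p = 7.21e-05), whereas Socs1 was not called. In the 4 Xist-positive libraries the calls of Ptpn11 and Irf8 were among those lost.

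Of 14 known IRF1 target genes 11 were tested, 10 were lower, 0 were higher and 1 was not called. At an unadjusted p below 0.05 in limma, and at an adjusted p below 0.05 in edgeR and in DESeq2, 0 were higher as well. The median log2 difference was -0.77, and 12.4% of all genes tested were lower. This list had been written with earlier results of these data known and is no independent evidence of its direction. Gbp2, an interferon-induced GTPase, had the log2 difference farthest from 0, at -5.14 (limma adjusted p = 4.10e-06), and Il12rb1, the IL-12 receptor chain of Th1 cells, was at -1.29 (limma adjusted p = 4.95e-06). Psmb8, Psmb9 and Psmb10, the subunits of the immunoproteasome, were at -0.84, -0.50 and -1.16, and Tap1 and Tap2, the peptide transporter of antigen presentation, at -0.30 and -0.77. B2m, the light chain of MHC class I, was at -0.35, Bst2 at -0.40 and the cell cycle inhibitor gene Cdkn1a at -0.82. Nlrc5, the activator of MHC class I genes, was at -0.15 and was not called (limma adjusted p = 0.0945). The calls of Tap1 and Bst2 were lost in the 4 Xist-positive libraries.

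The functional partners of the neighbours were read the same way, over 26 genes of which 22 were tested, 4 were lower, 4 were higher and 14 were not called. The share called was 36.4%, against 23.7% of all genes, and it moved with the settings. For Rad50, 2 of 3 partners in the DNA break response were lower, Nbn at -0.29 (limma adjusted p = 0.0481) and the kinase gene Atm at -0.56 (limma adjusted p = 0.00102), while Mre11a was not called. The Nbn call was lost in edgeR and DESeq2, without a trend and with Ddx3y in the fit. It was also lost on leaving out any of 5 single libraries, all but Irf1-/- replicate 1. For Kif3a, 0 of 3 tested kinesin-2 partners were called by limma, edgeR or DESeq2, and 1 had an unadjusted p below 0.05 in limma.

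As a background for the counts that follow, 11.4% of all genes tested were called higher and 12.4% lower. For Slc22a5, 2 of 6 tested genes of the carnitine system were higher. These were Crat, the carnitine acetyltransferase gene, by 0.72 on the log2 scale (limma adjusted p = 0.00866) and Cpt2, the inner-membrane palmitoyltransferase gene, by 0.37 (limma adjusted p = 0.0285). The Crat call was lost with Ddx3y in the fit and in the 4 Xist-positive libraries, with an adjusted p of up to 0.183. The Cpt2 call was lost in DESeq2, with Ddx3y in the fit and on leaving out any 1 of the 6 libraries. Cpt1c had the log2 difference farthest from 0 of the 6 tested genes, at -1.31, and was not called (limma adjusted p = 0.0638). For P4ha2, the paralog P4ha1 was higher by 0.24 (limma adjusted p = 0.0293), and by 0.105 to 0.305 over 19 alternatives. The P4ha1 call was lost in DESeq2, without a trend and with Ddx3y in the fit. It was also lost in 4 of the 6 fits without 1 library, those leaving out replicate 1 or 2 of either group. P4hb, the shared second subunit of the enzyme, was not called. For Pdlim4, 1 of 4 tested family members was higher, Pdlim7, from 67.9 ± 2.02 to 136 ± 10.9 (SD, n = 3 each) with a log2 difference of 0.99 (limma adjusted p = 0.000365). For Acsl6, 2 of 4 paralogs were lower, Acsl5 with a log2 difference of -0.57 (limma adjusted p = 4.16e-05) and Acsl3 with -0.30 (limma adjusted p = 0.0154), the latter not called in DESeq2, in the 4 Xist-positive libraries, without WT replicate 1 or without Irf1-/- replicate 2.

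Finally, genes with the most similar pattern over the 6 libraries were listed among 8219 genes with a mean of at least 100. The highest Pearson correlations with Irf1 on the log2 scale were those of Cdc5l, Tcf12 and Fmnl2, with 0.999, 0.999 and 0.998, followed by Csrp1 and Gfm1, with 0.998 and 0.997. With Gm17334 they were those of Capg, Acat2, Pfdn6, Atox1 and Tle1, between 0.995 and 0.997. The sizes of the differences varied among them, from -0.24 for Cdc5l to -2.78 for Fmnl2 on the log2 scale, and from 0.18 for Pfdn6 to 1.14 for Tle1. The 6 points share their libraries and fall into the 2 genotypes, so that any gene with a clean difference between the groups correlates highly, and the values describe this table and nothing more.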

How the data were processed

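Poly(A) RNA of the 3 WT and 3 Irf1-/- cultures was sequenced as single-end reads. STAR 2.4.0b (genome GRCm38) and featureCounts had been run by the authors, and the deposited signal is a count divided by a DESeq2 size factor (version 1.12.3 in the submitters' processing notes). Dividing by the smallest step of a library gave whole reads at 100% of the values above 0 (tolerance 0.001).

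The test was limma's moderated test with a trend (limma 3.58.1, R 4.3.3) on log2(normalized count + 1, the pseudocount) of genes averaging at least 10, with Benjamini-Hochberg adjustment over 11379 genes at 0.05. A fold on that scale understates the change of low genes. The script was tested on simulated data. Alternatives were edgeR 4.0.16 and DESeq2 1.42.0 on recovered reads, other pseudocounts, filters, scalings and windows, a replicate block, a Y-linked covariate and single libraries left out.

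The members and lists were chosen with earlier results of these data known. Named were all 9 members, called genes of the lists and of the 1 Mb around Irf1, the cytokine genes of the region, and the 5 genes most correlated with Irf1 and with Gm17334. List genes and neighbours given as not called were named after their values were seen. Positions are those of GENCODE M21, a later release than the authors' Ensembl annotation, exon unions gave the lengths, and 40254 of 41388 genes matched a symbol. Reads on genes numbered 5639788 to 13348230 a library. The 3 samples of a group were independent biological samples by the study's methods. Other data types of the study were not used here, and 1 gene of the IFN-γ signalling list is counted but not reported here by name.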

Additional observations from a re-analysis of the deposited data

How the results depend on the processing

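The differences of the tested members kept their sign under every alternative run for Irf1 (-0.85 to -0.68), Gm17334 (1.99 to 2.61), P4ha2 (1.32 to 2.38), Pdlim4 (0.99 to 1.79) and Acsl6 (0.15 to 0.29), on the log2 scale. Those of Rad50 (-0.06 to 0.28), Kif3a (-0.17 to 0.22) and Slc22a5 (-0.10 to 0.05) took both signs. The median over all genes tested stayed between -0.01 and 0.02 under each scaling.

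The count of all genes called, 2699 as reported, was 1735 without a trend, 784 in the 4 Xist-positive libraries, and 1625 to 2802 with 1 library left out, of which 1637 without WT replicate 1, 1625 without WT replicate 2 and 1715 without Irf1-/- replicate 2. Of the 10 neighbours tested within 1 Mb, 2 were called as reported, 1 with a mean of at least 50, 1 without a trend, 5 in replicates 1 and 2 only, and 1 to 4 with 1 library left out, 1 without WT replicate 1 and 4 without Irf1-/- replicate 3. In the 4 Xist-positive libraries limma called 0 of them, 3 at an unadjusted p below 0.05, whereas edgeR and DESeq2 on all 6 libraries called 2 each. A window of 2 Mb gave 12 of 32. With a mean of at least 50, limma called 0 of the 1 cytokine gene left to test, also at an unadjusted p. The IFN-γ signalling list had 3 calls, as against 5, in the 4 Xist-positive libraries. The partner lists, with 8 calls as reported, had 5 by DESeq2, 4 with the Y-linked covariate, 3 in the 4 Xist-positive libraries and 4 to 10 with 1 library left out, 4 without WT replicate 1, 5 without WT replicate 2 and 4 without Irf1-/- replicate 2. The cause was not tested. Of 116 recomputed counts 94 stayed within 1.5 times the reported one.

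WT and Irf1-/- libraries share replicate numbers. Deviations from the group means correlated at 0.09, 0.27 and 0.32 for replicates 1, 2 and 3, each library best with its own number. Libraries of unlike number correlated at -0.31 to 0.08. Whether samples of the same number were handled together is not given in the sources used here, and these values cannot decide it. The main fit took the samples as unpaired. With a replicate block 4009 genes were called in all, 5 of the 10 neighbours, 7 of the IFN-γ signalling list, 11 targets and 13 partners. Of the members, Rad50 was called with the block and in replicates 1 and 2 only, and it was not called in the main fit.

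Depth limits Slc22a4 and Pdlim4 most, with 0 or 1 and 5 to 52 reads a library.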

Other observations

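Of the 45 other annotated genes within 1 Mb of Irf1, 35 were not tested because their mean normalized count was under 10. Among them Gdf9 and Gm12227, named after their values were seen, were the ones with more than 3 reads in a library, with highest counts of 4 and 6 reads. Casp1, a gene of the IRF1 target list that missed the same filter, was at 13.9 ± 2.79 in WT and 1.35 ± 1.39 in Irf1-/- cells (SD, n = 3 each).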
